A study of Mus musculus with 6 samples.

Results

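Complex I of the mitochondrial respiratory chain was followed through the 45 genes whose symbols start with Nduf, taken by name from the 24421 genes of the count table. Of these, 36 encode subunits of the complex, 7 encode assembly factors (Ndufaf names), and Ndufa4 and Ndufa4l2 carry the family name without being counted among its subunits. The cells were primary neural stem cells of mouse embryos at E13.5, labelled as brain tissue and grown as neurospheres, which are floating clusters of dividing progenitors. The 3 Pml knockout libraries carry the genotype label PML knockout, and the 3 WT libraries the label WT; no allele, strain or sex is given. Both genotypes were kept in 20 ng/ml epidermal growth factor, 20 ng/ml fibroblast growth factor 2 and 20% oxygen, and were lysed on day 4 after dissociation. The replicates are numbered, but the labels do not say whether they are separate cultures or embryos, and all 6 carry 1 batch label, so every p-value measures the spread between these 6 libraries, which may be technical. In the series title the study asks about differentiation, stress tolerance and mitochondrial integrity without Pml, and complex I genes belong to that last question.

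Complex I takes electrons from NADH, passes them to ubiquinone and pumps protons across the inner mitochondrial membrane. It is L-shaped, with an arm in the matrix that holds the flavin and the iron-sulfur clusters and an arm in the membrane that pumps. A small set of core subunits is shared with bacteria, accessory subunits surround them, and assembly factors help to build the complex and then leave it. The membrane core subunits are encoded in mitochondrial DNA, and those 7 genes (mt-Nd names) were not analysed here. In the brain, dividing progenitors use glycolysis heavily, and neurons depend more on respiration.

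Libraries were made from the 3′ ends of transcripts, so a gene's count does not grow with transcript length and levels are given as CPM, a gene's reads scaled to a common library size with factors from the trimmed mean of M values (TMM). Pml knockout libraries held 4980638 to 5917505 counts, and WT libraries 1775152 to 4413318. The 45S pre-ribosomal RNA row took 14.6% to 17.6% of the counts in knockout libraries and 19.6% to 41.9% in WT libraries, with the 2 higher WT shares in WT replicates 1 and 2. Pml itself had 14, 23 and 5 reads in knockout replicates 1, 2 and 3, and 36, 35 and 44 in WT replicates 1, 2 and 3. The fitted difference was -2.81 (log2, SE 0.661) and missed the threshold (edgeR adjusted p 0.197), as it did by limma voom (adjusted p 0.257). It passed by DESeq2 (adjusted p 0.0034), and the authors' deposited table lists an adjusted p of 0.0030 for Pml, lower in the knockout. A 3′ tag outside the deleted part would not report the deletion. Of 10 neural stem cell markers, 9 had reads in every library, with 6793, 8382 and 7578 summed CPM in knockout and 6519, 7456 and 5667 in WT libraries. Of 17 hepatocyte markers, 16 had reads in every library, and their summed level was 84.8 to 116 CPM in knockout and 171 to 946 CPM in WT libraries. Erythroid, endothelial and mesenchymal lists each summed to at most 8.93 CPM in any library, with all 6 globin genes, Cdh5, Cldn5, Tek and Lum at 0 reads. The microglia and macrophage list reached 1.65 CPM at most in knockout libraries and 33.6 CPM in WT replicate 2.

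More genes with Nduf names had a lower than a higher level in Pml knockout cells when scaled by TMM, but no single gene passed the test. Of 45 genes, 43 passed the filter on low counts; with TMM 29 of these were lower and 14 higher in knockout cells, and with library totals 15 were lower and 28 higher. The median log2 fold change was -0.24, against -0.01 over all 11317 genes tested. With library totals in place of TMM factors the median turned to 0.19, but the median of all genes then moved to 0.43, so the difference between the genes with Nduf names and all genes was -0.24 there and -0.23 with TMM. Those totals include the 45S row. With library totals outside that row 24 members were lower and 19 higher. Their median was then -0.11, that of all genes 0.11, and the difference -0.22. That difference was -0.10 without knockout replicate 2 and -0.060 with trends with transcript length and GC content taken out of each library. By edgeR's quasi-likelihood test with Benjamini-Hochberg adjustment at 0.05, 0 members passed lower (0% of all genes did) and 0 passed higher (0.00884% of all genes). The smallest adjusted p among them was 0.212. At an unadjusted p under 0.05, 12 of 43 members were lower, where 9.19% of all genes were, and 0 were higher, where 6.7% of all genes were. After adjustment limma voom passed 0 members (0% of all genes), with 13 lower at an unadjusted p under 0.05 (7.7% of all genes). DESeq2 passed 2 members, both lower, Ndufa13 and Ndufb7, with 1.97% of all genes passing lower and 0.928% higher in that fit. The authors' deposited table also lists 1 member, Ndufa13, at an adjusted p under 0.05, at 0.0477 and lower in the knockout, where it lists 1.81% of its genes as lower and 1.13% as higher.

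The members together took 0.873%, 0.765% and 0.964% of the counts outside the 45S row in knockout replicates 1, 2 and 3. Their share was 1.02%, 0.954% and 1.04% in WT replicates 1, 2 and 3. The Wilson 95% intervals reached from 0.757% to 0.774% in knockout replicate 2 and from 0.936% to 0.972% in WT replicate 2, and they cover counting error only. This share uses no scaling factor, and it was higher in knockout replicate 3 than in WT replicate 2, so the genotypes overlapped. Summed over the 45 genes, the TMM-scaled level was 6160 ± 706 CPM in knockout and 7803 ± 343 CPM in WT libraries (SD, n = 3 each). In bulk RNA, fewer cells of a type and less RNA per cell cannot be told apart.

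**Figure D1:**
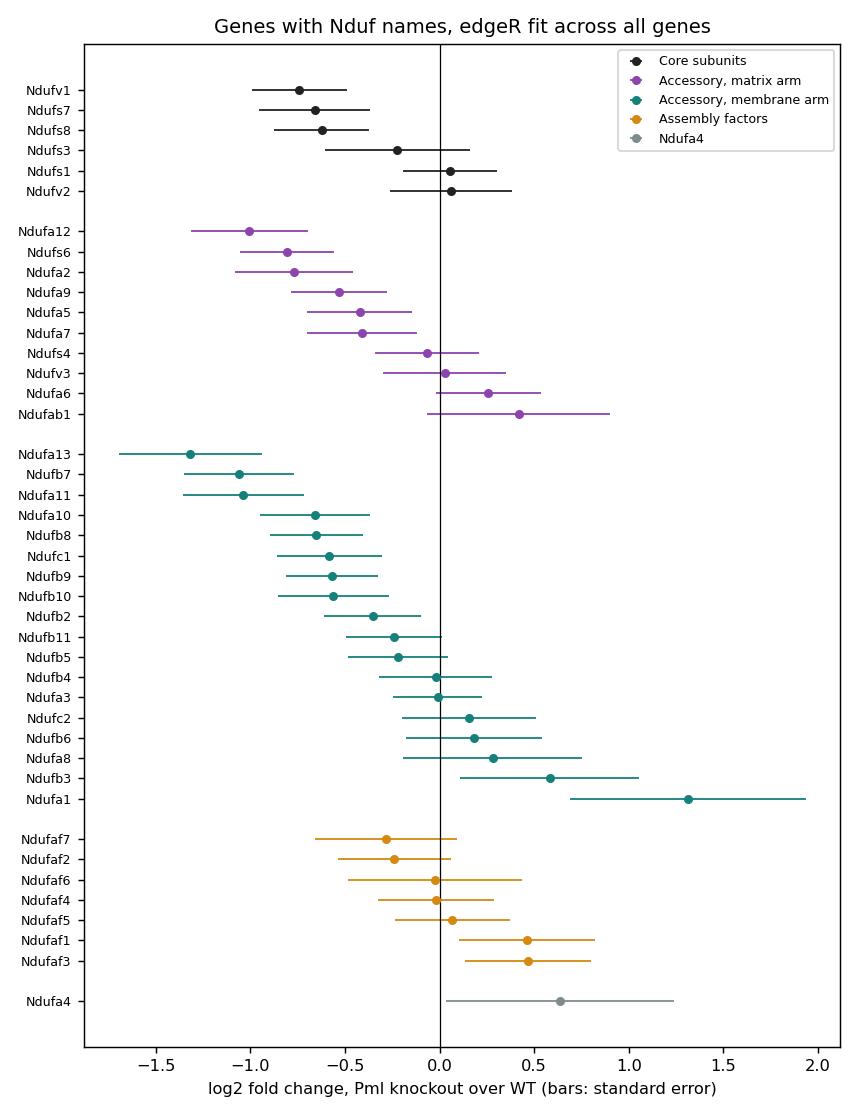
Log2 fold change of Pml knockout over WT for 42 of the 43 tested genes with Nduf names, grouped by role, with standard errors from the edgeR fit. Values run from -1.32 for Ndufa13 to 1.31 for Ndufa1. Of all 43 genes 29 were below 0 with TMM scaling, 15 with library totals and 24 with library totals outside the 45S row.

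The core subunits carry the flavin, the iron-sulfur clusters and the quinone site. All 7 encoded in the nucleus were tested; 5 were lower and 2 higher in knockout cells. Ndufv1, the subunit that holds the flavin and binds NADH (chromosome 19, 4007384 to 4012806, minus strand, GRCm38), had 111, 107 and 123 CPM in knockout libraries, against 182, 232 and 158 CPM in WT libraries. Every knockout library lay below every WT library, and the log2 fold change was -0.74 (SE 0.253, edgeR adjusted p 0.239). Ndufs8, an iron-sulfur subunit of the path to the quinone (chromosome 19, 3908863 to 3912774, minus strand), had 108, 99.1 and 125 CPM in knockout and 156, 202 and 154 CPM in WT libraries. Here too the genotypes did not overlap, with a log2 fold change of -0.62 (SE 0.25, adjusted p 0.273 by edgeR). Ndufs7 carries the last iron-sulfur cluster before the quinone. It had 83.8, 70.2 and 103 CPM in knockout and 124, 181 and 103 CPM in WT libraries, so knockout replicate 3 and WT replicate 3 met (log2 fold change -0.66, SE 0.294). Without WT replicate 2 it was -0.39, without WT replicates 1 and 2 it was -0.27, and with the trends removed -0.25. Ndufv1 was -0.48 without WT replicates 1 and 2, and Ndufs8 was -0.37 with the trends removed. Ndufs1, the largest iron-sulfur subunit, averaged 115 ± 10.4 CPM in knockout and 111 ± 18.7 CPM in WT libraries (SD, n = 3 each). Ndufv2, the partner of Ndufv1, averaged 198 ± 31.1 CPM in knockout and 190 ± 72.3 CPM in WT libraries, so the 2 flavoprotein genes had fold changes of unlike sign. The difference between them was not tested.

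Accessory subunits of the matrix arm showed a like range. Of 10 genes, all tested, 7 were lower and 3 higher, and the median difference was -0.42 (log2). Ndufs6, a zinc-binding subunit needed late in assembly (chromosome 13, 73319838 to 73328542, minus strand), had 89.1, 85.1 and 112 CPM in knockout and 159, 185 and 157 CPM in WT libraries. Its WT libraries lay close together, and all of them lay above the knockout libraries (-0.81, SE 0.247, edgeR adjusted p 0.223). Ndufa12, a subunit added late beside the tip of the arm (chromosome 10, 94198720 to 94221443, plus strand), had 215, 156 and 219 CPM in knockout and 355, 546 and 286 CPM in WT libraries. Its genotypes did not overlap, and WT replicate 2 stood highest (-1.0, SE 0.308, edgeR adjusted p 0.225). Ndufa2, a small accessory subunit with a thioredoxin-like fold (chromosome 18, 36742332 to 36744557, minus strand), had 289, 252 and 291 CPM in knockout and 384, 688 and 349 CPM in WT libraries. Ndufa9, which sits where the matrix arm meets the membrane, had 112, 79.3 and 114 CPM in knockout and 148, 155 and 138 CPM in WT libraries. All knockout libraries were below all WT libraries for both genes, with log2 fold changes of -0.77 (SE 0.311) for Ndufa2 and -0.53 (SE 0.254) for Ndufa9. Without WT replicates 1 and 2 Ndufa2 was -0.33 and Ndufa12 -0.54, and Ndufa2 was -0.39 without WT replicate 2 alone. Ndufab1, the mitochondrial acyl carrier protein, went the other way on average, with 111, 84.9 and 121 CPM in knockout and 71.4, 24.0 and 138 CPM in WT libraries. Those genotypes overlapped widely (0.42, SE 0.486).

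The membrane arm held both the lowest and the highest fold change. Of its 19 genes, 18 were tested, 13 of them lower and 5 higher, and the median difference was -0.30 (log2). Ndufa13, also known as GRIM-19 (chromosome 8, 69894180 to 69902558, minus strand), had 1031, 796 and 1187 reads in knockout libraries and 1162, 761 and 897 in WT libraries. In CPM these are 155, 131 and 177 in knockout and 346, 608 and 204 in WT libraries, so the lowest WT value, in replicate 3, lay near the highest knockout value. On the log2 scale it was -1.32 (SE 0.380, edgeR adjusted p 0.220). That value was -0.40 without WT replicates 1 and 2 and -0.81 without WT replicate 2. Yjefn3 on the same strand and Tssk6 on the other overlap this gene in the annotation. Strand cannot separate reads shared with a gene on the same strand, and for the other strand no setting is stated. The same limit holds for other members. Ndufb8 and Ndufc2, among others, overlap a gene on the same strand. Ndufa2, Ndufa11, Ndufs6, Ndufb5 and Ndufaf3, among others, overlap a gene on the other strand.

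Ndufb7, a subunit facing the intermembrane space with paired disulfides (chromosome 8, 83566671 to 83571626, plus strand), had 90.4, 61.0 and 89.5 CPM in knockout and 185, 197 and 123 CPM in WT libraries. It had the smallest p of all members, and its log2 fold change was -1.06 (SE 0.290, edgeR adjusted p 0.212). Without WT replicates 1 and 2 it was -0.61, and it was -0.54 after trends with transcript length and GC content were taken out of each library. Ndufa11, a subunit of the membrane arm in contact with complex III (chromosome 17, 56717767 to 56722141, plus strand), had 70.0, 84.1 and 86.8 CPM in knockout and 142, 243 and 112 CPM in WT libraries (-1.04, SE 0.320). It was -0.65 without WT replicate 2, -0.48 without WT replicates 1 and 2 and -0.63 with the trends removed. Ndufb8 (chromosome 19, 44548572 to 44555440, minus strand) is a subunit often used as a marker of assembled complex I. It had 279, 243 and 302 CPM in knockout and 460, 425 and 409 CPM in WT libraries, and the replicates of each genotype stayed close together. On the log2 scale Ndufb8 was -0.65 (SE 0.244, edgeR adjusted p 0.25).

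Ndufa1, a short membrane subunit encoded on the X chromosome (37187588 to 37191163, minus strand), had the highest fold change of the family. Its reads numbered 321, 490 and 605 in knockout and 96, 4 and 231 in WT libraries. That is 48.3, 80.8 and 90.2 CPM in knockout and 28.6, 3.20 and 52.4 CPM in WT libraries, with WT replicate 3 above knockout replicate 1. The log2 fold change was 1.31 (SE 0.624, edgeR adjusted p 0.337), and it was 0.47 without WT replicates 1 and 2. At an unadjusted p under 0.05 Ndufa1 was the 1 member called higher by DESeq2 (7.1% of all genes), by voom (7.49%), without WT replicate 2 (8.63%) and with the trends removed (4.76%). Ndufb3, another small subunit of the membrane arm, had 122, 121 and 149 CPM in knockout and 121, 24.0 and 113 CPM in WT libraries. Its genotypes did not overlap, but WT replicates 1 and 3 lay close to the lowest knockout library. Its log2 fold change of 0.58 (SE 0.470) was 0.17 without WT replicate 2 and 0.89 without WT replicate 1. Ndufc2 and Ndufb5, a pair of membrane-arm subunits, were among the members with the most CPM. Ndufc2 averaged 525 ± 55.5 CPM in knockout and 471 ± 210 CPM in WT libraries, and Ndufb5 averaged 361 ± 45.4 CPM in knockout and 420 ± 80.5 CPM in WT libraries (SD, n = 3 each).

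**Figure D2:**
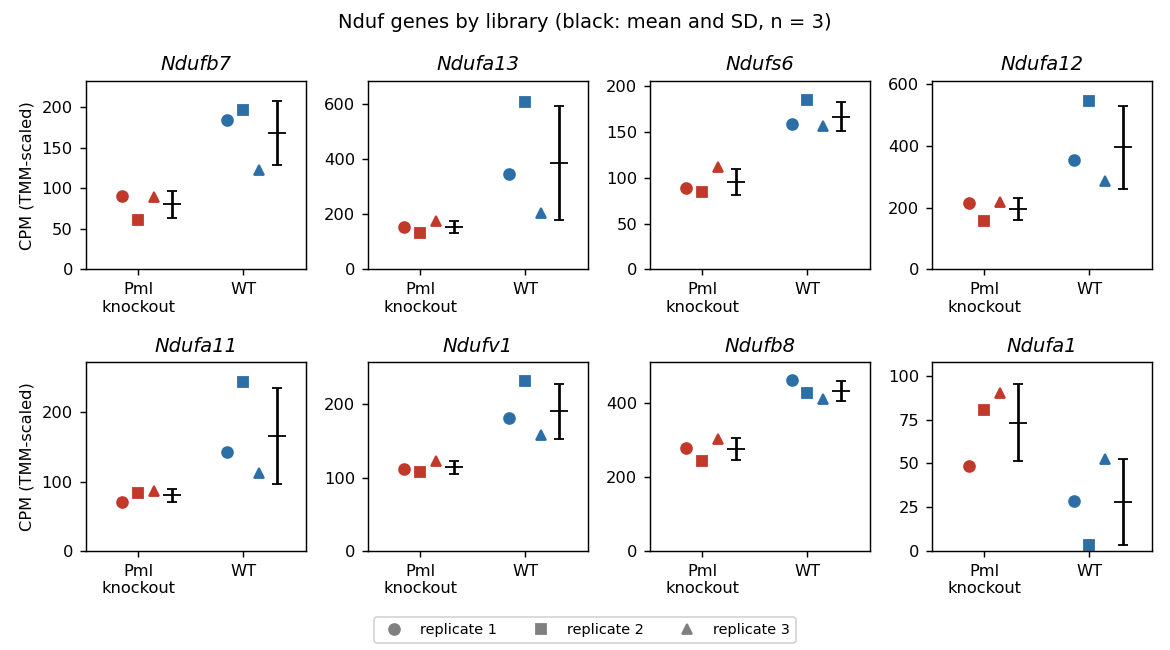
CPM with TMM factors of 8 genes in each library, Pml knockout in red and WT in blue, with the mean and SD of 3 libraries in black. For 7 genes every knockout library lies below every WT library, while for Ndufa1 WT replicate 3, at 52.4 CPM, lies above knockout replicate 1, at 48.3 CPM.

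Assembly factors with Ndufaf names stood near the median of all genes. Of 7, all tested, 3 were higher and 4 lower. Their median difference was -0.02 (log2). None was at an unadjusted p under 0.05, where 6.7% of all genes were higher and 9.19% lower. Ndufaf3, a factor of early assembly in the matrix, had 14.1, 17.6 and 19.4 CPM in knockout and 12.8, 12.8 and 11.6 CPM in WT libraries. Ndufaf1, which binds early membrane-arm intermediates, had 12.0, 13.7 and 13.9 CPM in knockout and 10.4, 10.4 and 8.17 CPM in WT libraries. Both were higher in every knockout library than in any WT library, with log2 fold changes of 0.47 (SE 0.333) and 0.46 (SE 0.359). The reads behind them were few, 80 to 130 in knockout and 13 to 51 in WT libraries. Ndufaf2, which binds a late intermediate in the place Ndufa12 later takes, had 71.3, 42.0 and 59.7 CPM in knockout and 52.7, 73.5 and 78.3 CPM in WT libraries. Ndufaf7, a methyltransferase of early assembly, had 15.8, 12.5 and 12.7 CPM in knockout and 23.8, 12.0 and 13.4 CPM in WT libraries. The genotypes overlapped for both.

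Ndufa4 is now placed with cytochrome oxidase, complex IV. It had 101, 93.3 and 139 CPM in knockout and 72.9, 10.4 and 127 CPM in WT libraries, a log2 fold change of 0.64 (SE 0.603). Leaving out WT replicate 2 gave 0.16, leaving out WT replicate 3 gave 1.34, and leaving out WT replicates 1 and 2 together gave -0.19. Ndufa4l2, a paralogue induced by hypoxia, did not pass the filter, with 23, 10 and 3 reads in knockout and 5, 8 and 0 in WT libraries. Ndufs5, a membrane-arm subunit, had 0 reads in all 6 libraries; a count of 0 allows up to 3 counts per library, which is 0.447 to 0.495 CPM in knockout and 0.681 to 2.40 CPM in WT libraries. RefSeq names a pseudogene copy for Ndufs5, Ndufs6, Ndufa11, Ndufa12 and Ndufab1, so counts of these 5 genes are uncertain.

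For 14 members lower in knockout cells the genotypes did not overlap, where 11.3% of all genes were lower without overlap. For 3 members that were higher they did not overlap either, where 12.3% of all genes were higher. With library totals 4 were lower and 7 higher without overlap, and with library totals outside the 45S row 12 and 3. No share of all genes is given for these scalings. Among the 14 were Ndufv1 and Ndufs8 of the core, Ndufa2, Ndufa9, Ndufa12 and Ndufs6 of the matrix arm, and Ndufa11, Ndufa13, Ndufb7 and Ndufb8 of the membrane arm. The 3 were Ndufaf1, Ndufaf3 and Ndufb3.

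Single libraries held much of the spread. Knockout replicate 2 had the lowest level of all 6 libraries for 22 of 43 members, while it was the lowest for 14.5% of all genes. Without it the median log2 fold change was -0.11, with 19 of 44 tested members higher and 25 lower. WT replicate 2, the shallowest library, was the highest for 16 members and the lowest for 13, and over all genes it was the highest for 30.8% and the lowest for 35.2%. Its lowest values relative to the other libraries were those of Ndufa1 and Ndufa4. The median deviation of the members from their own mean was -0.03, -0.33 and 0.01 (log2) in knockout replicates 1, 2 and 3. In WT replicates 1, 2 and 3 it was 0.19, 0.24 and 0.16, so with TMM scaling all WT medians lay above all knockout medians. The share of counts outside the 45S row, which uses no scaling factor, overlapped. It was 0.964% in knockout replicate 3 and 0.954% in WT replicate 2.

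**Figure D3:**
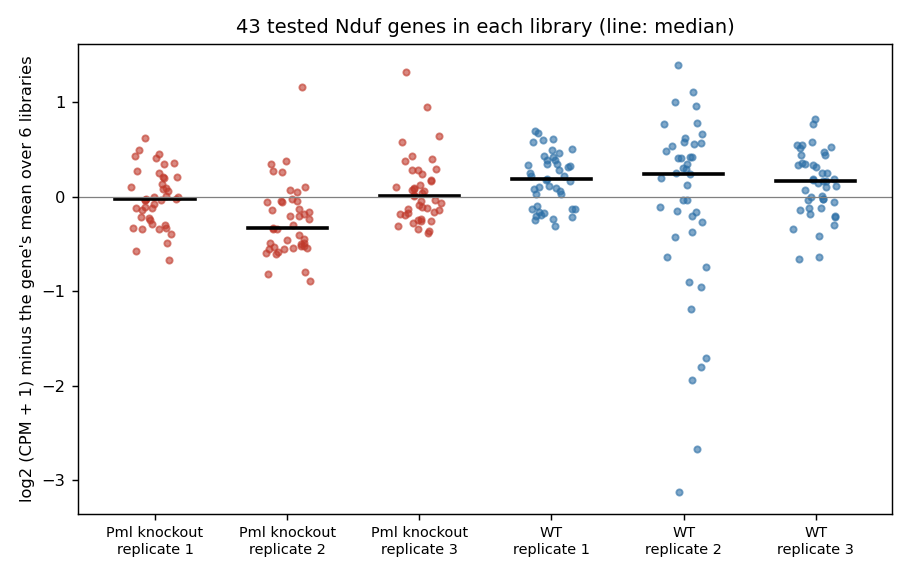
Log2 (CPM + 1) of each of the 43 tested genes minus its mean over 6 libraries, by library, Pml knockout in red and WT in blue, with the median as a line. With TMM scaling the medians are -0.03, -0.33 and 0.01 in knockout and 0.19, 0.24 and 0.16 in WT libraries. WT replicate 2 has the widest scatter.

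WT replicate 3, the WT library with the lowest 45S share and the lowest hepatocyte marker level, was also compared on its own. Its level was above all 3 knockout libraries for 25 of 43 members, where 32.2% of all genes were, and below all 3 for 7, where 33.9% were. The knockout mean was lower than WT replicate 3 for 32 members and higher for 11. In the edgeR fit without WT replicates 1 and 2, where the lone WT library is assumed to vary like the knockout ones, 32 of 44 members were lower and the median log2 fold change was -0.32. In that fit 0 members passed, where 0.748% of all genes passed higher and 0.419% lower. Ndufa4l2 and Ndufv3 were higher at an unadjusted p under 0.05, with 9.59% of all genes, and Ndufa12, Ndufaf4, Ndufb7, Ndufb8, Ndufb9 and Ndufs6 were lower at that level, with 7.37%. Ndufa4l2 had 0 reads in WT replicate 3, so against that library alone it could only come out higher. Its place among the higher members therefore says nothing about its direction. With all libraries its mean was 1.85 CPM in knockout and 2.63 CPM in WT, and it did not pass the filter. Without WT replicate 2 alone, 0 members passed (0.00856% of all genes passed higher), and 8 were lower at an unadjusted p under 0.05, with 8.36% of all genes. Without WT replicate 3, by contrast, 6 members passed lower, where 7.97% of all genes did. They were Ndufa10, Ndufa11, Ndufa12, Ndufa13, Ndufb7 and Ndufv1, and Ndufa1 passed higher, where 5.01% of all genes did. At an unadjusted p under 0.05, Ndufa1, Ndufa4 and Ndufab1 were higher there, with 15.4% of all genes, and 14 of 44 were lower, with 16.5%. The WT side of that fit rests on the libraries with the higher 45S and hepatocyte levels, whose part in the result was not tested.

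The fold changes also moved with base composition. Transcript ends of the members, taken as the last 300 bases of the longest coding transcript, had a median GC content of 44.7%, against 41.7% over all genes with a transcript. Across the 43 members the log2 fold change and that GC content had a Spearman correlation of -0.56, and over 10921 genes it was -0.43. These points share the same 6 libraries and are a description. Of the 14 members with the most GC at the end (48.7% to 58.3%), 13 were lower and the median log2 fold change was -0.60. Of the 14 with the least (32% to 41.3%), 6 were lower and 8 higher, with a median of 0.06. The ratio of WT replicate 2 to WT replicate 3 moved with the same GC content at a correlation of 0.71, and that of WT replicate 1 to WT replicate 3 at 0.67. For the knockout mean over WT replicate 3 the correlation was 0.03, and the medians of the high-GC and low-GC members were -0.33 and -0.37. Once length and GC trends were taken out of each library, the median of the members was -0.18 and that of all genes -0.12, so their difference was -0.06. In that fit 10 members were lower at an unadjusted p under 0.05, with 10.2% of all genes, and with library totals 1 was, Ndufa13, with 1.86%.

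**Figure D4:**
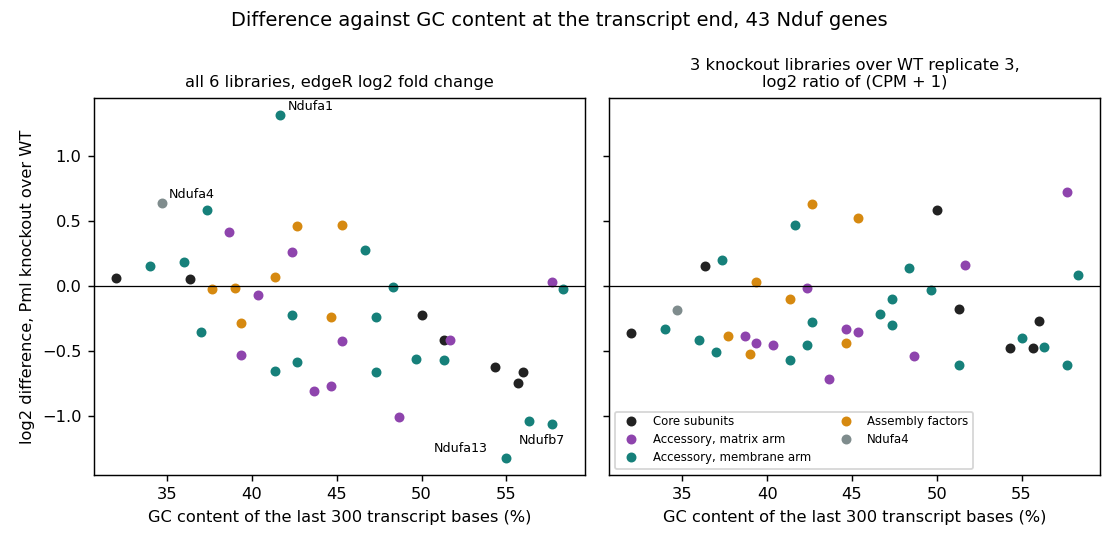
Log2 difference of Pml knockout over WT against the GC content of the last 300 transcript bases for 43 genes, with all 6 libraries on the left and with WT replicate 3 as the only WT library on the right. The correlation is -0.56 on the left and 0.03 on the right.

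Promoters of the family were read in RefSeq windows (GRCm38.p6) from 250 bases before to 50 after the start of the gene, which 39 of 45 members had. Words of 4 factor families known to act on genes of respiration or on promoters rich in CpG were searched on both strands, and words may overlap, as the ETS and YY1 words can at AAG. The Sp1 word GGGCGG occurred in 51.3% of members and 35.9% of all 27025 promoters, and the YY1 word AAGATGG in 17.9% of members and 6.48% of all promoters. The ETS word CCGGAAG occurred in 12.8% of members and 9.12% of all promoters, and the NRF1 core GCATGCG in 12.8% of members and 3.64% of all promoters. A match is a run of letters in a window, not a site. Ndufb8 (lower) and Ndufaf1 (higher) are shown as 1 subunit and 1 assembly factor without overlap between genotypes. In both the stretch before the start overlaps no annotated exon and holds a word, as it also does in other members such as Ndufv2 and Ndufaf4. Both are on the minus strand and are written 5′ to 3′ towards the gene, Ndufb8 at chr19:44555443-44555692 and Ndufaf1 at chr2:119662835-119663084, with matched words in capitals.
Ndufb8: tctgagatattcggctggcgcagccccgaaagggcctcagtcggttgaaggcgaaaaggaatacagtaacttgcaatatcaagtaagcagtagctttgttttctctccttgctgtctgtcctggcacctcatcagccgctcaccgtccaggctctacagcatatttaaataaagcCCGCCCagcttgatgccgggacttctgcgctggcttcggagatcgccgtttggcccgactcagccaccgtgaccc
Ndufaf1: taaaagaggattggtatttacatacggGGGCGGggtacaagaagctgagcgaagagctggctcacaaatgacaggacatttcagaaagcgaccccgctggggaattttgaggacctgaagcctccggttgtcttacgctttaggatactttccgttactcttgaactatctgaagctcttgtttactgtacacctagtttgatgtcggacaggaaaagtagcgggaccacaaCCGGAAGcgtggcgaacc
Upstream of the start, Ndufb8 holds the Sp1 word read on the other strand, and its YY1 word lies after the start. Ndufaf1 holds the Sp1 word and, nearer its start, the ETS word.

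Other genes around complex I were set beside the family. Of 13 assembly factors with other names, all tested, 7 were higher and 6 lower. Their median difference was 0.20 (log2). None was at an unadjusted p under 0.05, where 6.7% of all genes were higher and 9.19% lower. Atp5sl, a distal membrane-arm assembly factor, had 8.73, 4.95 and 4.62 CPM in knockout and 16.7, 29.6 and 4.31 CPM in WT libraries. Tmem126b, part of the mitochondrial complex I assembly complex, averaged 3.98 ± 0.655 CPM in knockout and 2.22 ± 1.00 CPM in WT libraries (SD, n = 3 each). Of 12 genes of other NADH routes (shuttles, lactate dehydrogenases and transhydrogenase), 11 were lower and 1 higher with TMM, and their median was -0.15 (log2). Of the 11, Got1, Slc25a11, Slc25a12, Gpd2 and Ldha lay between -0.08 and -0.03. The 1 that was higher was Nnt, the proton-driven transhydrogenase that makes NADPH from NADH. It had 23.9, 17.1 and 22.7 CPM in knockout and 8.93, 7.99 and 7.72 CPM in WT libraries, with no overlap (1.37, SE 0.344, edgeR adjusted p 0.206). The authors' deposited table lists Nnt at an adjusted p of 0.0309, higher in the knockout. No strain is given for either genotype, so a strain difference and the loss of Pml cannot be told apart here. Got2, the mitochondrial transaminase of the malate-aspartate shuttle, had 122, 81.6 and 86.5 CPM in knockout and 232, 332 and 105 CPM in WT libraries (-1.20, SE 0.394).

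Complexes II to V gave values close to those of complex I. Of 48 tested genes, 32 were lower and 16 higher, and their median was -0.30 on the log2 scale. It was 0.13 with library totals, and -0.18 with library totals outside the 45S row. With length and GC trends removed it was -0.07, where all genes were at -0.12. At an unadjusted p under 0.05, 10 were lower, where 9.19% of all genes were, and 2 higher, where 6.7% of all genes were. After adjustment 0 passed the edgeR test, where 0% of all genes passed lower and 0.00884% higher. The difference from complex I was not tested. By complex the medians were 0.13 for complex II (7 genes), -0.25 for complex III (9), -0.32 for complex IV (14) and -0.44 for ATP synthase, complex V (18). The complex II list includes assembly factors, which were kept apart for complex I, so its median does not cover subunits alone. Sdhb, the iron-sulfur subunit of succinate dehydrogenase, had 370, 246 and 307 CPM in knockout and 544, 1038 and 388 CPM in WT libraries (-1.09, SE 0.376). Sdhaf1, an assembly factor of the same enzyme, averaged 45.9 ± 5.12 CPM in knockout and 86.0 ± 27.9 CPM in WT libraries. Uqcrc1, a core protein of complex III, averaged 128 ± 14.0 CPM in knockout and 210 ± 44.5 CPM in WT libraries. Uqcr10, a small subunit of that complex, averaged 273 ± 34.7 CPM in knockout and 561 ± 333 CPM in WT libraries. Cox7a2, a subunit of complex IV, had 456, 403 and 504 CPM in knockout and 623, 1324 and 592 CPM in WT libraries. Its paralogue Cox7a1, known from heart and muscle, had 6.32, 3.13 and 4.03 CPM in knockout and 1.19, 1.599 and 0.681 CPM in WT libraries (2.07, SE 0.681). The Cox7a1 reads were few, 42, 19 and 27 in knockout and 4, 2 and 3 in WT libraries. Atp5k, a small subunit of ATP synthase, had 572, 463 and 546 CPM in knockout and 1004, 2532 and 691 CPM in WT libraries (-1.42, SE 0.448). Atp5g1, which encodes a copy of the rotating c subunit, averaged 24.9 ± 10.04 CPM in knockout and 54.7 ± 21.3 CPM in WT libraries (SD, n = 3 each).

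**Figure D5:**
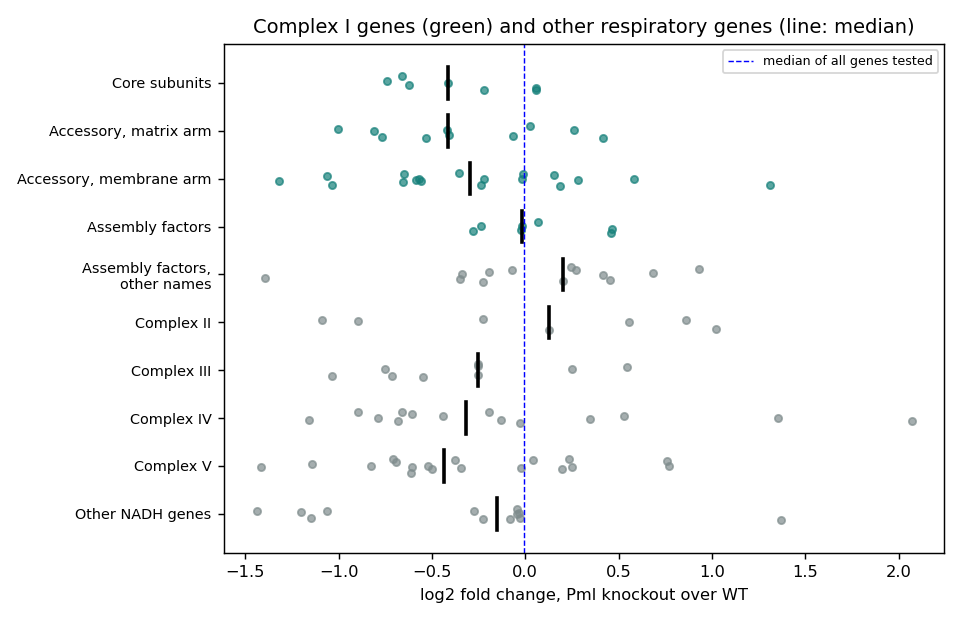
Log2 fold change of Pml knockout over WT for each tested gene, with complex I groups in green, other groups in grey and the group median as a line. Medians run from -0.44 for complex V to 0.20 for assembly factors with other names, around -0.01 for all genes, with TMM scaling.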

How the data were processed

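Total RNA (integrity number over 7) was made into 3′ tag libraries with the QuantSeq forward kit, per the labels' protocols. The authors deposited whole-number counts per gene symbol, not normalized; per the submitters' processing notes they used FastQC, HISAT2, HTSeq, edgeR and mm10, and the sources used here give no versions, annotation or strandedness. Fold changes (log2) and p-values deposited by them enter only where named as theirs, and 6 normalized columns were left unused.

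Counts were fitted in R 4.3.3 with edgeR 4.0.16 (TMM factors, robust quasi-likelihood F test, no covariate, default filter with a minimum count of 10 and a total of 15), which tested 11317 genes. Benjamini-Hochberg adjustment ran over all genes tested, with a threshold of 0.05. Each SE is the log2 fold change over the root of F. Values are CPM as mean ± SD. DESeq2 1.42.0 and limma 3.58.1 were alternatives, with other scalings, filters, a replicate block and left-out libraries. The test was tested on simulated data. Transcript ends and positions came from GENCODE M21 (GRCm38, the assembly mm10 names), ratios in the GC comparison from CPM + 1.

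Members, lists and alternatives were chosen with earlier results of these data known. Named were Pml, members past the threshold, the 4 smallest p per role, the 5 largest rises and falls averaging at least 5 CPM, the 3 highest and lowest levels, untested members and the 2 smallest p of other lists. The values of 1 member that this rule names are not reported here. Ndufs1, Ndufv2 and Ndufab1, and genes listed for a count, were added after their values were seen. Neuron, oligodendrocyte and astrocyte marker lists summed to 461 to 659, 1161 to 2100 and 213 to 611 CPM per library.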

Additional observations from a re-analysis of the deposited data

How the results depend on the processing

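Among results for single named genes, 364 recomputed fold changes kept their direction and their side of the threshold, 8 newly passed and 8 turned. Over all genes the test passed 1 higher and 0 lower; higher were 0 with DESeq2 size factors, library totals, a minimum of 5 CPM, limma voom, no 45S row, library totals outside it, or length and GC trends removed. DESeq2 passed 105 higher and 223 lower, no filter 2 lower, the replicate block 1 lower, and the fit without WT replicates 1 and 2 together 91 and 51. Leaving out 1 library gave 0 to 589 higher and 0 to 937 lower over all genes, with 0 to 1 higher and 0 to 6 lower members past the threshold; the counts 589, 937, 1 and 6 came without WT replicate 3. DESeq2 passed 2 members lower. At an unadjusted p under 0.05, members numbered 0 higher and 12 lower, against 6.7% and 9.19% of all genes. With library totals they numbered 2 and 1, against 14.2% and 1.86%. Higher were 1 by DESeq2 (7.1% of all genes), 1 by voom (7.49%) and 1 with trends removed (4.76%). The replicate block gave 2 and 6, and 6 were lower with library totals outside the 45S row. Leaving out 1 library gave 0 to 3 higher and 5 to 14 lower, the 5 without knockout replicate 1 or 2. The 3 and 14 came without WT replicate 3, with 15.4% and 16.5% of all genes. No share of all genes is given for the replicate block, the totals outside the 45S row or the left-out knockout libraries. Genotypes stood apart for 3 members higher and 14 lower, against 12.3% and 11.3% of all genes. With library totals they stood apart for 7 and 4, and with totals outside the 45S row for 3 and 12. With 1 library left out, 3 to 9 were higher and 14 to 19 lower. Without WT replicates 1 and 2 together the counts were 8 and 26, but a lone WT library lies on 1 side more easily. With TMM, WT replicate 3 lay below every knockout library for 33.9% of all genes and above for 32.2%. Shares of all genes are not given for the other settings. With library totals the member median turned to 0.19, that of complexes II to V to 0.13, Ndufaf2 to 0.17, Ndufaf7 to 0.19 and Ndufb5 to 0.19 (log2), as the scaling raised all genes by 0.43. With library totals outside the 45S row the member median was -0.11 and that of complexes II to V -0.18. Without WT replicates 1 and 2 together Ndufaf7 was 0.026, Ndufa4 -0.19 and Ndufc2 -0.34; with 1 library left out Ndufaf7 ran from -0.43 to 0.11 (without WT replicate 1) and Ndufc2 from -0.14 (without WT replicate 2) to 0.49. The member median minus that of all genes was -0.060 with trends removed and -0.34 to -0.10 with 1 library left out; the cause of these shifts was not tested. The trend removal and the totals outside the 45S row were chosen after seeing the data. Whether replicate numbers pair the libraries was not settled: same-numbered deviations correlated at -0.003, 0.07 and 0.19 for replicates 1, 2 and 3. Knockout replicates 2 and 3 correlated best with the WT library of their own number, and knockout replicate 1 with WT replicate 2, at 0.09. Deviations from a mean of 3 libraries are tied to each other, so these values cannot decide it. Depth was lowest in WT replicate 2, with 1775152 counts.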
